A study of Mus musculus with 4 samples.

Results

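The 10 genes described here encode 5 pairs of isozymes of energy metabolism, each pair made of a form restricted to male germ cells and the general form used by most other cells. The germ cell forms are Gapdhs, Pgk2, Ldhc, Pdha2 and Cyct, and the general forms in the same order are Gapdh, Pgk1, Ldha, Pdha1 and Cycs. They were chosen by name, and all 10 were found among the 12415 features whose reads lay on the sense strand of annotated exons. All 10 were also among the 10728 features that passed the filter on low counts and were tested. The libraries came from whole testes of adult C57Bl/6J mice at postnatal day 60. There were 2 libraries from Nef-sp-/- mice, which carry only the knockout allele of an RNA exonuclease gene of the testis, and 2 from Nef-sp+/- mice. The knockout allele is an out-of-frame deletion made with Cas9 nickase and a pair of guide RNAs, and the line was bred from founder females. The Nef-sp+/- controls therefore also carry a copy of the deletion, and no wild-type testis entered the comparison. The comparison asked whether loss of the exonuclease changed transcript levels in the testis. The labels do not say whether replicates were separate animals, so the p-values measure only the spread between these libraries. Because whole testes were used, fewer cells of a type and less RNA per cell cannot be told apart.

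Glycolysis splits glucose into pyruvate, lactate dehydrogenase interconverts pyruvate and lactate, the pyruvate dehydrogenase complex feeds pyruvate carbon to the citric acid cycle, and cytochrome c carries electrons in the mitochondrial respiratory chain. Male germ cells use separate genes for several of these steps. Pgk1 and Pdha1 lie on the X chromosome, which is silenced during meiosis, and their germ cell forms Pgk2 and Pdha2 are autosomal copies derived from reverse-transcribed mRNA. Sperm glycolysis is tied to the fibrous sheath of the tail, where the Gapdhs protein is anchored.

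The gene models of the pairs differed in kind. In the GENCODE M1 annotation of the mouse genome build mm9, Pgk2 (ENSMUSG00000031233, minus strand, chr17:40343963-40345554) and Pdha2 (ENSMUSG00000047674, minus strand, chr3:140872968-140875319) each had 1 exon. Their X-linked partners Pgk1 (ENSMUSG00000062070, plus strand, chrX:103382439-103399038) and Pdha1 (ENSMUSG00000031299, minus strand, chrX:156560141-156576345) had 11 exons each. Ldhc (ENSMUSG00000030851, plus strand, chr7:54116573-54133512) lay just downstream of Ldha (ENSMUSG00000063229, plus strand, chr7:54096845-54110997), and both had 8 exons. Gapdhs (ENSMUSG00000061099, minus strand, chr7:31514799-31528700) had 11 exons and Gapdh (ENSMUSG00000057666, minus strand, chr6:125111871-125116485) had 7. Cyct (ENSMUSG00000056436, minus strand, chr2:76191999-76198507) had 4 exons and Cycs (ENSMUSG00000063694, minus strand, chr6:50512562-50516537) had 3.

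Whether a 50-base read can tell the forms of a pair apart depends on how far their sequences have diverged. Over the aligned coding bases, Gapdhs and Gapdh were 72.2% identical, Ldhc and Ldha 74.8%, Pdha2 and Pdha1 76.3%, Cyct and Cycs 77.8%, and Pgk2 and Pgk1 79.5%. The longest run of bases shared exactly by a pair was 22, between Pgk2 and Pgk1, so no pair shared a run as long as a read. The following stretches of 50 bases come from the coding exons of 4 pairs and show where reads of one form come close to the other. For each pair they are the most alike of the stretches compared, which lay without gaps on 1 exon in both genes. Stretches across exon junctions were not compared, so more similar ones may exist. Capitals mark the bases that differ within a pair. The stretches are written 5′ to 3′ on the coding strand. Their positions in mm9 are chr17:40345149-40345198 (Pgk2, minus strand), chrX:103389981-103390030 (Pgk1, plus strand), chr7:54131111-54131160 (Ldhc, plus strand), chr7:54107312-54107361 (Ldha, plus strand), chr3:140874420-140874469 (Pdha2, minus strand), chrX:156570005-156570054 (Pdha1, minus strand), chr2:76194239-76194288 (Cyct, minus strand) and chr6:50515593-50515642 (Cycs, minus strand).
Pgk2: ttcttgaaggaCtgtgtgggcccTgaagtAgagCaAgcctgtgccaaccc
Pgk1: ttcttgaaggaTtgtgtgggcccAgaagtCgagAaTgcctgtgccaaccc
Ldhc: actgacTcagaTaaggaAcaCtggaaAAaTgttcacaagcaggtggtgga
Ldha: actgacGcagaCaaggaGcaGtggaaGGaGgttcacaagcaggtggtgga
Pdha2: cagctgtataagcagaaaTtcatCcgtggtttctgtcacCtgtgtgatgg
Pdha1: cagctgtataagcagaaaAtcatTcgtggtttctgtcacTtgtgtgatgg
Cyct: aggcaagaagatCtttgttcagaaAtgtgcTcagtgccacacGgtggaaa
Cycs: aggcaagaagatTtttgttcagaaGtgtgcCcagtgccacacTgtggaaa
Even there the Pgk pair differed at 5 bases, the Ldh pair at 7, the Pdha pair at 3 and the Cyc pair at 4. The stretches of Pgk2, Ldhc, Ldha, Pdha2, Pdha1 and Cyct each had 1 exact match in the genome. Those of Pgk1 and Cycs had 3 and 6.

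A larger difference lay between the pairs' forms in how many copies of their sequence the genome holds. For the germ cell forms, none of the 50-base stretches of the transcript matched anywhere but the gene itself. Of the Pgk1 transcript's 1776 stretches, 126 (7.09%) matched a single place, and 92.9% also or only matched elsewhere. For Gapdh 85.6% of stretches matched elsewhere, at up to 84 places for a stretch, for Cycs 38.5%, at up to 1110 places, for Ldha 29.1%, and for Pdha1 0.679%. The authors kept reads that match the genome exactly. Of the 1408 stretches of Gapdhs, 466 had no exact match, while each stretch of Pgk2, Pdha2, Pgk1 and Cycs had a match somewhere in the genome. How the authors treated reads that match several places is not given in the sources used here, so the levels of Gapdh, Pgk1, Cycs and Ldha are uncertain in a way that those of the germ cell forms and Pdha1 are not.

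**Figure D1:**
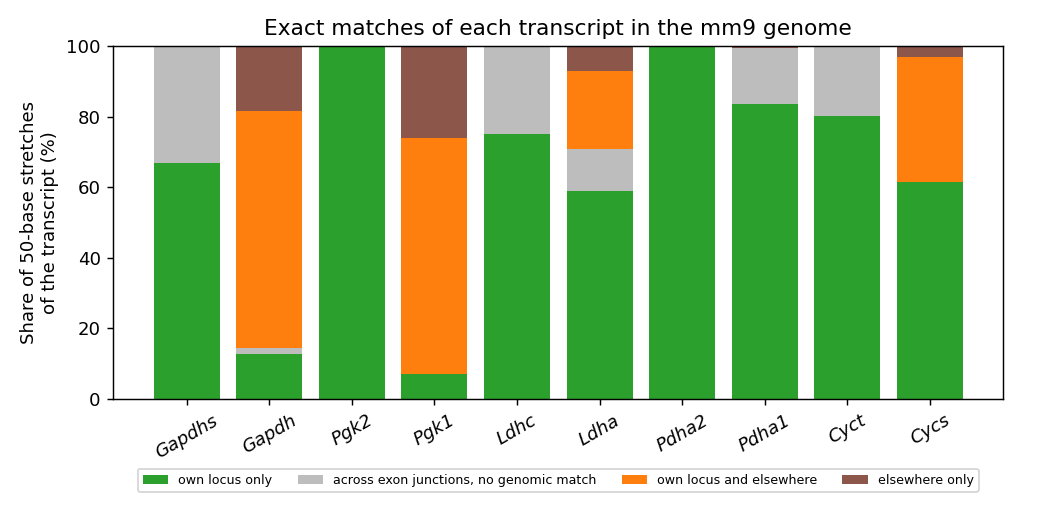
Share of the 50-base stretches of each transcript (y axis, %) by their exact matches in the mm9 genome, for the 10 genes (x axis). Stretches that match a single place make up 7.09% of Pgk1 and 12.6% of Gapdh but 100% of Pgk2 and Pdha2. Stretches with no match lie across exon junctions.

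The 4 libraries held between 20659865 and 34442517 reads over all annotation categories and between 15815159 and 26618821 on sense exons. The targeted gene, listed as 2610020H08Rik, had 1843 and 1693 normalized counts in Nef-sp+/- testes against 407 and 497 in Nef-sp-/- testes (log2 difference -1.97, SE 0.0921, adjusted p = 4.12e-06 by the quasi-likelihood test of edgeR, Benjamini-Hochberg adjusted). A normalized count is the read count scaled to the mean effective library size, with trimmed mean of M-values (TMM) factors. This was the only feature called at an adjusted p below 0.05 of the 10728, or 0.00932%. DESeq2 called 2 features, and 515 features had an unadjusted p below 0.05. Of the 10 marker lists for germ cell stages, somatic cells of the testis, blood and epididymis, none held a gene called by edgeR with all 4 libraries. Summed Leydig cell markers were 1063 and 1069 CPM (counts scaled to a fixed library size) in the controls and 1012 and 882 in the Nef-sp-/- libraries, and summed blood markers were 23.4 to 29.3. The Leydig sum rests largely on Cyp17a1 and Cyp11a1 (log2 differences -0.27 and -0.35), while 5 of the 8 Leydig genes had estimates above 0 and the median of the list was 0.05. Spermatocyte markers summed to 2053 to 2210 and round spermatid markers to 2335 to 2481 on the same scale. The summed level of 10 elongating spermatid transcripts, led by Prm2 and Odf2, was 27977 CPM in Nef-sp+/- replicate 1 and 34077 to 35043 in the other 3 libraries. That library thus stood apart from the rest in transcripts of late spermatids.

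None of the 10 isozyme genes was called by edgeR's quasi-likelihood test between the genotypes, against 0.00932% of all tested features, and none had an unadjusted p below 0.05. DESeq2 called none of them either. The median log2 difference (Nef-sp-/- minus Nef-sp+/-) was 0.05 for the germ cell forms and 0.01 for the general forms, and -0.000224 for all tested features. Adjusted p-values by edgeR with Benjamini-Hochberg adjustment ran from 0.954 to 0.990, and the 95% confidence intervals of the log2 difference stayed between -0.63 (Pdha1) and 0.51 (Gapdh). For 4 of the 10 genes both Nef-sp-/- libraries lay outside both Nef-sp+/- libraries, which was so for 34.5% of all tested features. They were above for Pgk2, Ldhc and Cycs (16.4% of all features) and below for Pdha1 (18.1% of all features). The other 6 overlapped.

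**Figure D2:**
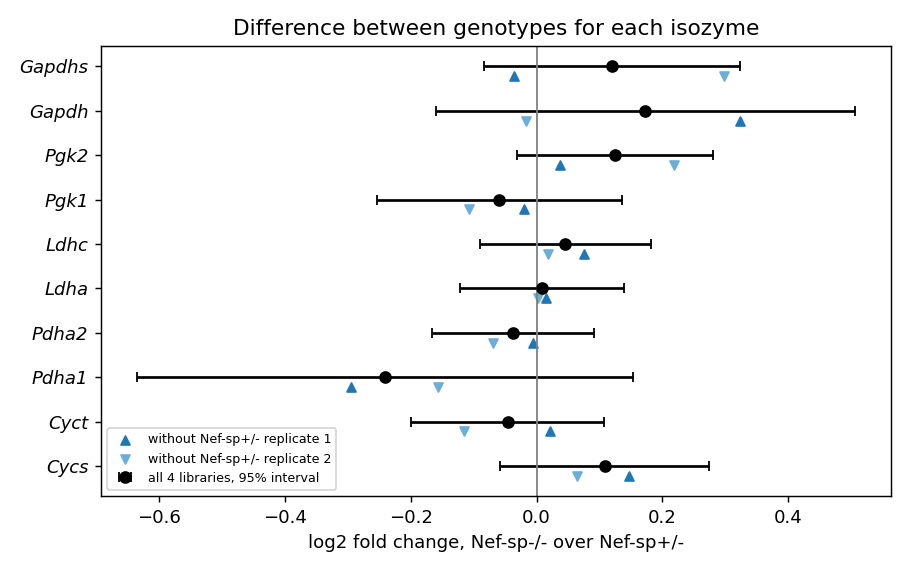
Log2 fold change between genotypes, above 0 where Nef-sp-/- is higher (x axis), for the 10 genes (y axis). Black points and bars give the estimate and 95% confidence interval of the edgeR fit to all 4 libraries, and triangles the estimate with replicate 1 or replicate 2 of Nef-sp+/- left out. Each of the 10 intervals includes 0, the widest belong to Pdha1 and Gapdh, and the triangles of Gapdhs lie at -0.03 and 0.30.

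The genes differed far more from each other than between genotypes. On the RPKM scale, which divides reads by library size and by the kilobases of the transcript, and averaged over the 4 libraries, Ldhc stood at 3770 and ranked 5 among the 9963 tested features with a known length. Pgk2 followed at 1111 (rank 31), Ldha at 649 (rank 69), Gapdhs at 445 (rank 137), Pdha2 at 166 (rank 555) and Cyct at 141 (rank 669). The other general forms were lower on this scale, with Cycs at 11.4, Pgk1 at 10.3, Gapdh at 4.63 and Pdha1 at 1.27, which ranked 8200. The libraries' ranges of neighbours in this order overlapped for Cycs (10.7 to 12.3) and Pgk1 (9.85 to 10.9) and for no other neighbours. Ldha was thus the 1 general form that lay among the germ cell forms.

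Since many stretches of Pgk1, Gapdh, Cycs and Ldha match several places, the same reads were also divided by the length of the single-place stretches alone. That length leaves out stretches across exon junctions. All reads of a gene were kept, so this scale holds only if reads that match several places were not counted. If they were counted, it gives these genes too high a level. On this scale Pgk1 was 149 RPKM of single-place sequence, Gapdh 38.0, Cycs 18.8 and Pdha1 1.55, beside 191 for Cyct and 170 for Pdha2. Ldha at 1132 lay close to Pgk2 at 1147, and their libraries overlapped. The 2 scales therefore gave different orders below Ldhc, and the highest and the lowest gene were the same on both.

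**Figure D3:**
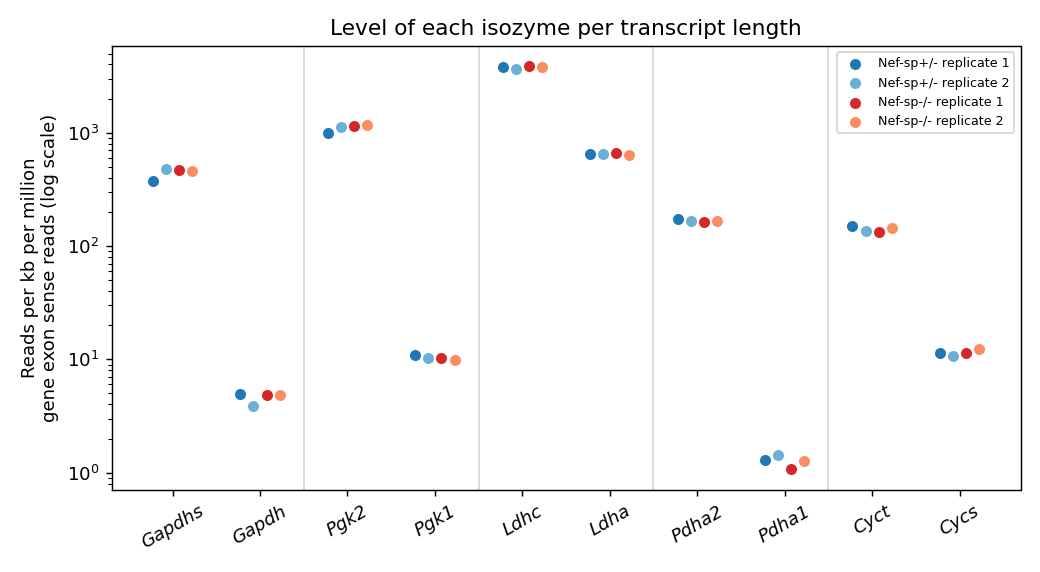
Level of each gene in each of the 4 libraries as RPKM, library-scaled reads per kilobase of transcript (y axis, log scale), for the 5 pairs (x axis). The points of a gene lie close together while the genes spread from 1.27 for Pdha1 to 3770 for Ldhc.

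Glyceraldehyde-3-phosphate dehydrogenase oxidizes a triose phosphate in the middle of glycolysis. Gapdhs, the form bound to the sperm tail, had 10250.0 and 12914 normalized counts in Nef-sp+/- testes (replicates 1 and 2) against 12718 and 12478 in Nef-sp-/- testes. Nef-sp+/- replicate 1 was the low library, and the genotypes overlapped. Its log2 difference between genotypes was 0.12 (SE 0.0919, adjusted p = 0.954 by edgeR with Benjamini-Hochberg adjustment), which corresponds to 1.09-fold with an interval of 0.944 to 1.25. The 2 Nef-sp+/- libraries differed from each other by 1.26-fold, more than this difference between genotypes. Gapdh, widely used as a reference transcript in other tissues, had 130.1 and 102.8 normalized counts in Nef-sp+/- testes against 128.2 and 129.0 in Nef-sp-/- testes. Here the low library was Nef-sp+/- replicate 2. The estimated log2 difference was 0.17 (SE 0.151, adjusted p = 0.956 by edgeR with Benjamini-Hochberg adjustment). With 109 to 146 raw counts, counting alone gave Gapdh a coefficient of variation of 8.28% to 9.58%. Gapdhs held 98.7% to 99.2% of the reads of this pair in every library.

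Phosphoglycerate kinase makes the first ATP of glycolysis. Pgk2 had 29558 and 33503 normalized counts in Nef-sp+/- testes against 34236 and 34518 in Nef-sp-/- testes. Both Nef-sp-/- libraries were above both controls, and Nef-sp+/- replicate 1 was again the lowest. This gave a log2 difference of 0.12 (SE 0.0702, adjusted p = 0.954 by edgeR with Benjamini-Hochberg adjustment), with the smallest unadjusted p of the 10 genes, 0.105 in the same edgeR fit. Its X-linked partner Pgk1 had 369.4 and 347.9 normalized counts in Nef-sp+/- testes against 351.1 and 334.9 in Nef-sp-/- testes. The genotypes overlapped for Pgk1. Its log2 difference was -0.06 (SE 0.0878, adjusted p = 0.959 by edgeR with Benjamini-Hochberg adjustment). Pgk2 held 98.8% to 99.0% of the reads of both genes.

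Lactate dehydrogenase works as a tetramer, and Ldhc encodes the subunit of the isozyme found in spermatocytes, spermatids and sperm. It had the most reads of the 10 genes, with 96490 and 92857 normalized counts in Nef-sp+/- testes against 98792 and 96678 in Nef-sp-/- testes. The Nef-sp-/- libraries were both above the controls, by little: 96678 against 96490 for the closest libraries. The log2 difference was 0.05 (SE 0.0616, adjusted p = 0.957 by edgeR with Benjamini-Hochberg adjustment), and the interval ran from -0.09 to 0.18. Ldha, the subunit typical of muscle, had 21385 and 21211 normalized counts in Nef-sp+/- testes against 21794 and 21057 in Nef-sp-/- testes. The controls lay between the Nef-sp-/- libraries, and the log2 difference was 0.01 (SE 0.0587, adjusted p = 0.990 by edgeR with Benjamini-Hochberg adjustment). Ldhal6b, a further lactate dehydrogenase-like gene of the testis, had 22388 to 24092 normalized counts, and its genotypes overlapped. Of the reads of these genes and Ldhb together, Ldhc held 67.4% to 68.3%, Ldhal6b 15.8% to 16.5%, Ldha 14.9% to 15.4% and Ldhb, the subunit typical of heart, 0.896% to 1.01%. These shares moved by about 1 percentage point or less between any libraries.

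The alpha subunit of pyruvate dehydrogenase E1 carries part of the active site that decarboxylates pyruvate. Pdha2 had 7543 and 7226 normalized counts in Nef-sp+/- testes against 7148 and 7233 in Nef-sp-/- testes. The Nef-sp-/- libraries lay at the lower end of the range and overlapped with the controls. Its log2 difference between genotypes was -0.04 (SE 0.0583, adjusted p = 0.960 by edgeR with Benjamini-Hochberg adjustment). Pdha1 was the gene of the 10 with the fewest reads, 49 to 108 raw counts, and had 69.1 and 76.1 normalized counts in Nef-sp+/- testes against 56.6 and 67.4 in Nef-sp-/- testes. Both Nef-sp-/- libraries were below both controls. The estimated log2 difference was -0.24 (SE 0.179, adjusted p = 0.954 by edgeR with Benjamini-Hochberg adjustment), with an interval from 0.644-fold to 1.11-fold. It was -0.12 without Nef-sp-/- replicate 1 and -0.37 without Nef-sp-/- replicate 2. The counting coefficient of variation of 9.62% to 14.3% in a library limits what could be detected for this gene. Pdha2 held 99.0% to 99.2% of the reads of both genes.

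Cytochrome c passes electrons from complex III to complex IV, and outside the respiratory chain it takes part in triggering apoptosis. Cyct, the testis form, had 1835 and 1668 normalized counts in Nef-sp+/- testes against 1639 and 1748 in Nef-sp-/- testes. The genotypes overlapped, and Nef-sp+/- replicate 1 was the highest library. This gave a log2 difference of -0.05 (SE 0.0692, adjusted p = 0.959 by edgeR with Benjamini-Hochberg adjustment). Cycs had 656.0 and 619.7 normalized counts in Nef-sp+/- testes against 658.3 and 713.5 in Nef-sp-/- testes. Both Nef-sp-/- libraries were above both controls, and the nearer pair of libraries almost touched. The log2 difference was 0.11 (SE 0.0752, adjusted p = 0.954 by edgeR with Benjamini-Hochberg adjustment). Cyct held 73.7% and 72.9% of the reads of the pair in the controls and 71.3% and 71.0% in the Nef-sp-/- libraries. In raw reads, cytochrome c was thus the pair in which the general form took the largest share. The Cycs transcript is longer, 3123 bases against 655 for Cyct. Per kilobase the general form was closest to the germ cell form in the Ldh pair (Ldhc to Ldha 5.80, Cyct to Cycs 12.4).

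A ratio of the germ cell form to the general form within a library does not depend on how libraries are scaled. In raw reads, Gapdhs exceeded Gapdh 78.8- and 125.6-fold in Nef-sp+/- testes against 99.2- and 96.8-fold in Nef-sp-/- testes. The controls lay on either side of the Nef-sp-/- libraries. Pgk2 exceeded Pgk1 80.0- and 96.3-fold in the controls and 97.5- and 103.1-fold in the Nef-sp-/- libraries. Ldhc exceeded Ldha 4.51- and 4.38-fold in the controls and 4.53- and 4.59-fold in the Nef-sp-/- libraries. Both of these ratios were higher in the Nef-sp-/- libraries, by 0.19 and 0.04 on the log2 scale. The Pgk difference was 0.06 without Nef-sp+/- replicate 1 and 0.33 without Nef-sp+/- replicate 2. Pdha2 exceeded Pdha1 109.2- and 95.01-fold in the controls and 126.3- and 107.2-fold in the Nef-sp-/- libraries. Cyct exceeded Cycs 2.80- and 2.69-fold in the controls and 2.49- and 2.45-fold in the Nef-sp-/- libraries. The Pdha ratio overlapped between genotypes, and the cytochrome c ratio was lower in the Nef-sp-/- libraries (log2 difference -0.15). In a two-sided exact permutation test, 2 libraries against 2 cannot give a p below 0.3333. That p was reached for the Pgk, Ldh and cytochrome c pairs, and the 5 p-values adjusted for the 5 pairs ran from 0.556 to 1. The median log2 difference of the 5 ratios was 0.04. Summed over the 5 pairs, germ cell form reads exceeded general form reads 6.44- and 6.63-fold in the controls. The excess was 6.72- and 6.84-fold in the Nef-sp-/- libraries (exact permutation p = 0.3333). These sums rest mostly on the Ldh pair. In Nef-sp+/- replicate 1, Ldha made up 18581 of the 19645 general form reads, and Ldhc 83838 of the 126574 germ cell form reads. The 5 germ cell forms together took 0.790% to 0.819% of all sense exon reads and the 5 general forms 0.119% to 0.124%.

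**Figure D4:**
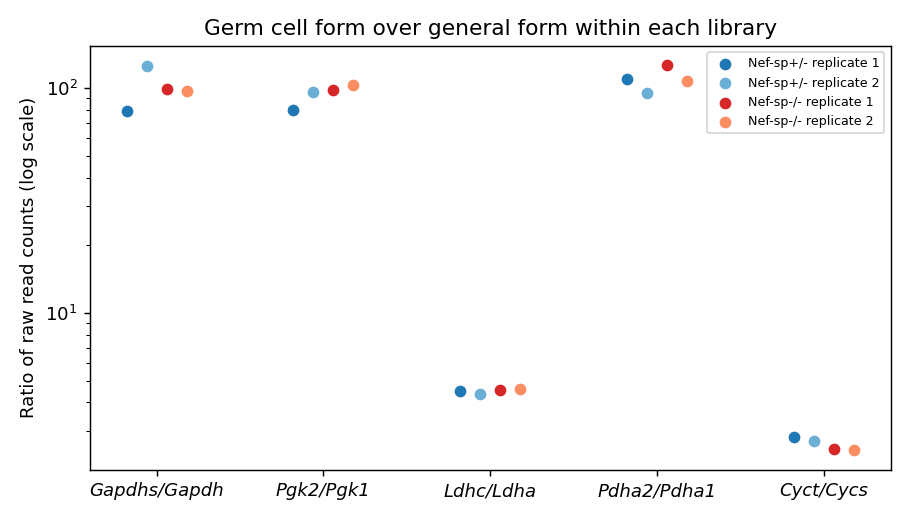
Ratio of raw reads of the germ cell form to those of the general form in each library (y axis, log scale) for the 5 pairs (x axis). The Pdha, Gapd and Pgk pairs lie between 78.8 and 126.3, and the Ldh and cytochrome c pairs between 2.45 and 4.59, in libraries of either genotype.

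Per kilobase of transcript, the mean ratio over the libraries was 131.9 for Pdha2 to Pdha1, 107.5 for Pgk2 to Pgk1, 96.2 for Gapdhs to Gapdh, 12.4 for Cyct to Cycs and 5.80 for Ldhc to Ldha. Per single-place kilobase it was 110.4, 7.66, 18.1, 10.2 and 4.59 in the same order. The germ cell form was thus above the general form in all 5 pairs on both scales, and the choice of scale moved the Pgk and Gapd ratios most.

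Nef-sp+/- replicate 1 touched the results for Gapdhs and Pgk2. In that library Gapdhs was 0.807 and Pgk2 0.867 of their mean in the other 3 libraries, while Ldhc was at 1.004, Ldha at 1.001, Pdha2 at 1.05 and Cyct at 1.09. Of the 16 other glycolytic genes tested, 9 were lowest there, and the list had a median log2 ratio of -0.05 to the other libraries. Of the elongating spermatid transcripts 10 of 10 were lowest there, with a median log2 ratio of -0.33. Over all tested features 26.8% were lowest there, with a median of 0.01. Hexokinase Hk1, which starts glycolysis and was 0.820 of the other libraries, and pyruvate kinase, listed as Pkm2 and at 0.856, belonged to the low glycolytic genes. Others of the list were not low there, such as Pgam1 at 1.05 and Eno3 at 1.04. Gpi1 at 0.789 and Tpi1 at 0.818, the isomerases of glucose 6-phosphate and of the trioses, were picked out after their values were seen. The part of late spermatid RNA or of this library in the Gapdhs and Pgk2 values was not tested, and their differences between genotypes were near 0 without it. Against Nef-sp+/- replicate 2 alone, the log2 difference was -0.03 for Gapdhs and 0.04 for Pgk2. Against Nef-sp+/- replicate 1 alone it was 0.30 for Gapdhs and 0.22 for Pgk2, with adjusted p-values of 4.41e-04 and 0.0041 in edgeR with Benjamini-Hochberg adjustment. In that fit 2.32% of all tested features were called, and with them 9 of the 10 elongating spermatid transcripts, all higher in Nef-sp-/-. Against replicate 2 alone edgeR called 0.376% of all features and no isozyme gene.

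**Figure D5:**
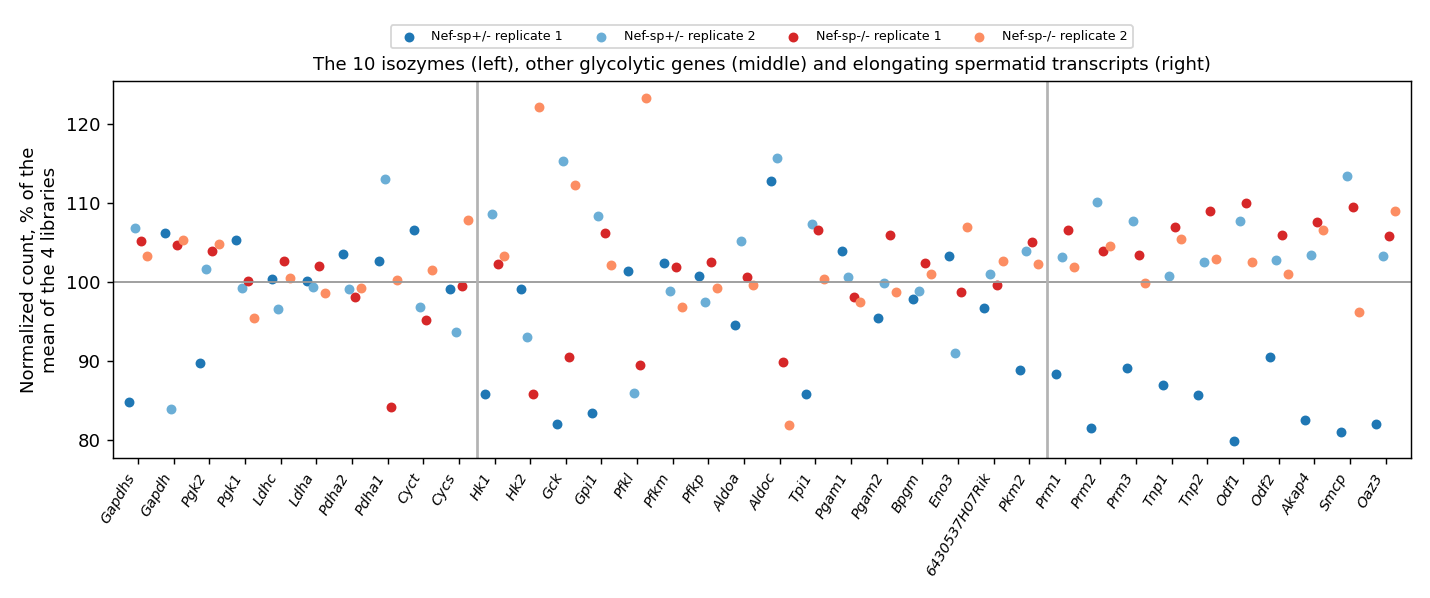
Normalized count of each gene in each library as a percentage of its mean over the 4 libraries (y axis), for the 10 isozymes, the 16 other tested glycolytic genes and 10 elongating spermatid transcripts (x axis, left to right). The dark blue points of Nef-sp+/- replicate 1 are the lowest for Gapdhs, Pgk2, 9 of the glycolytic genes and all 10 elongating spermatid transcripts, and not for Ldhc, Pdha2 or Cyct.

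Reads in other annotation categories gave a readout that the choice of genes did not use. Sense intron reads, which can come from unspliced RNA, were listed for 5 of the 10 genes. Ldhc had 103 and 149 raw intron counts in Nef-sp+/- testes against 69 and 87 in Nef-sp-/- testes, next to 81706 to 131863 exon counts. Scaled to library size, these intron counts were 115.5 and 109.6 in the controls and 82.2 and 95.7 in the Nef-sp-/- libraries. The log2 difference was -0.33 (SE 0.184, unadjusted p = 0.084 and adjusted p = 0.9996 in edgeR with Benjamini-Hochberg adjustment). Gapdhs had 143.5 and 180.3 normalized intron counts in the controls and 154.8 and 177.1 in the Nef-sp-/- libraries (log2 difference 0.02). Pgk2 had 351 and 666 raw intron counts in the controls and 454 and 418 in the Nef-sp-/- libraries (log2 difference 0.17), although its GENCODE M1 model holds no intron. The annotation behind the deposited intron counts is not given in the sources used here. After scaling, the genotypes overlapped for the intron counts of Gapdhs and Pgk2. Cyct had 6 to 13 counts and Cycs 2 to 6, below the filter. Of 3403 intron sense features edgeR called 1, or 0.0294%, and none of the isozyme genes, and DESeq2 called 0 of all intron sense features. At an unadjusted p below 0.05 edgeR had 80 of them, with no isozyme gene.

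Antisense reads over the isozyme genes were few. Ldhc had 40 and 55 antisense exon counts in Nef-sp+/- testes against 25 and 36 in Nef-sp-/- testes (log2 difference -0.21, SE 0.258). Gapdhs had 13 and 7 in the controls and 11 and 6 in the Nef-sp-/- libraries, and Pdha2 had 1 to 5. The genotypes overlapped for Ldhc and Gapdhs after scaling. Of 1008 antisense exon features 0% were called by edgeR, and DESeq2 called 0. At an unadjusted p below 0.05 edgeR had 30, with no isozyme gene. In introns, antisense reads numbered 6 to 14 for Gapdhs and 0 to 5 for Pgk1. The antisense exon reads of Ldhc were at most 0.0477% of its sense exon reads.

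The other genes of these pathways were taken from lists by function. None of 16 tested glycolytic genes (of 21 looked for), 15 genes of pyruvate and lactate handling (of 19), 22 partners of cytochrome c (of 22) and 9 further germ cell isoforms (of 12) was called in either direction, and none had an unadjusted p below 0.05 in the edgeR fit. Their median log2 differences were 0.06, 0.01, -0.02 and 0.03, beside -0.000224 for all tested features. In glycolysis, 12 estimates were above 0 and 4 below. Hk1 had 24699 and 31254 normalized counts in Nef-sp+/- testes against 29436 and 29718 in Nef-sp-/- testes, and pyruvate kinase had 7627 and 8922 against 9017 and 8787. Both had their lowest value in Nef-sp+/- replicate 1. Aldoc, an aldolase best known from brain, had 39.1 and 40.1 normalized counts in the controls and 31.2 and 28.4 in the Nef-sp-/- libraries (log2 difference -0.41, adjusted p = 0.954 by edgeR with Benjamini-Hochberg adjustment).

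Among the genes of pyruvate handling, Dlat, the E2 subunit that takes the acetyl group from the E1 enzyme of Pdha2, had 2680 and 2657 normalized counts in Nef-sp+/- testes against 2508 and 2518 in Nef-sp-/- testes (log2 difference -0.09). Pdk2, a kinase that inactivates the E1 alpha subunit, had 2142 and 2175 in the controls and 2031 and 1983 in the Nef-sp-/- libraries (log2 difference -0.11). Both were named for the smallest p-values of the list, and both had the Nef-sp-/- libraries below the controls. Of all 15 genes this was so for 4, and 2 had them above, against 18.1% and 16.4% of all features. Slc16a7, the lactate and pyruvate transporter MCT2 found on the sperm tail, had 19554 to 21172 normalized counts, and its genotypes overlapped.

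On the side of the respiratory chain, Cyc1, the subunit of complex III that hands electrons to cytochrome c, had 563.9 and 537.3 normalized counts in Nef-sp+/- testes against 513.9 and 513.5 in Nef-sp-/- testes (log2 difference -0.10). Cox6a1, a subunit of complex IV, had 2373 and 2289 in the controls and 2116 and 2190 in the Nef-sp-/- libraries (log2 difference -0.11). Cox4i1, another subunit of complex IV and the most abundant transcript of this list, had 4816 to 5051. Cyc1 and Cox6a1 were named for the smallest p-values of the list, and both had the Nef-sp-/- libraries below the controls. Of all 22 partners this was so for 3, and 2 had the Nef-sp-/- libraries above the controls, against 18.1% and 16.4% of all features. Among the further germ cell isoforms, Slc2a3, a glucose transporter of sperm, had 40009 to 42994 normalized counts, and Cox6b2, the testis form of a complex IV subunit, had 2388 to 2720. Their genotypes overlapped.

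Over the 4 libraries, the mean centred log2 level of the 5 germ cell forms was lowest in Nef-sp+/- replicate 1. There Gapdhs (-0.23) and Pgk2 (-0.15) were low, while Ldhc (0.005), Pdha2 (0.05) and Cyct (0.09) were not. The features most like this mean were Dynll2, Narfl and Rab35 (Pearson r of 0.9998 or more). For the 5 general forms they were Klhl11, Asph and Clasp2 (r of 0.9994 or more). With 4 libraries, 413 and 338 features reached an r above 0.95, so the 3 names describe these libraries and do not set those genes apart.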

How the data were processed

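Total testicular RNA was depleted of ribosomal RNA with Ribo-Zero, and strand-specific TruSeq libraries were sequenced for 50 cycles on an Illumina HiSeq. The deposited values are raw read counts per feature and annotation category (sense or antisense, exon or intron), made by the authors on mm9 per the submitters' processing notes. Adapters had been trimmed, mapping used in-house tools of the authors, and reads that did not match the genome exactly were discarded, so a read across an exon junction could be lost. The counting of reads that match more than 1 place and the gene annotation are not given in the sources used here. Further columns of the deposited table hold the authors' DESeq2 comparison (mean level, log2 fold change, p-values) and were not used. The precision follows from 15815159 to 26618821 sense exon reads a library, and counting errors cover counting only.

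Features with enough reads by edgeR's filterByExpr (minimum count 10) were fitted with edgeR 4.0.16 in R 4.3.3 (TMM factors, quasi-likelihood test, Nef-sp-/- against Nef-sp+/-, no covariate), with Benjamini-Hochberg adjustment over all tested features of a category and a threshold of 0.05. The script was tested on simulated data. DESeq2 1.42.0, other scalings and filters, a replicate block and leaving out each library were alternatives. Same-numbered libraries did not deviate together (correlation of -0.09 over 10728 sense exon features), so the numbers were not taken to pair libraries. The members and lists were chosen with earlier results of these data known. Named genes are the 10 members and, of each pathway list, any called gene or else the 2 with the smallest p and the 1 with the highest level, of each marker list the 2 with the highest level, and for likeness the 3 with the highest correlation. Genes listed under older symbols were found by RefSeq synonyms (GRCm38.p6 table, names only). Lengths, gene models and sequences came from GENCODE M1 on the mm9 genome, using for each gene the transcript with the most coding bases, and 9963 of 10728 tested features (92.9%) had a length. Sequence stretches were compared with every position of both strands of the genome. Ldhal6b had no length.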

Additional observations from a re-analysis of the deposited data

How the results depend on the processing

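The number of sense exon features called was 1 in edgeR, 2 in DESeq2, and between 1 and 252 when a library was left out: 252 without Nef-sp+/- replicate 2, 41 without Nef-sp+/- replicate 1, and 1 without either Nef-sp-/- library. In these fits a genotype has 1 library, which is assumed to vary like the other 2. The isozyme genes called numbered 0 to 2 (Gapdhs and Pgk2, without Nef-sp+/- replicate 2), and the glycolytic genes 0 to 4 (Hk1, Gpi1, Tpi1 and Pkm2, in the same fit). That fit called 2.32% of all tested features and 9 of the 10 elongating spermatid transcripts. Across the left-out libraries the log2 difference ran from -0.035 to 0.298 for Gapdhs, from -0.115 to 0.022 for Cyct, from -0.0161 to 0.323 for Gapdh and from -0.0165 to 0.037 for Ldha. It kept its sign for Pgk2 (0.04 to 0.22), Ldhc (0.02 to 0.07), Pdha2 (-0.07 to -0.0063), Pgk1 (-0.11 to -0.02), Pdha1 (-0.37 to -0.12) and Cycs (0.05 to 0.17). The log2 difference of the ratio ran from -0.36 to 0.31 for Gapdhs to Gapdh, from 0.06 to 0.33 for Pgk2 to Pgk1, from 0.02 to 0.06 for Ldhc to Ldha, from 0.07 to 0.31 for Pdha2 to Pdha1 and from -0.18 to -0.12 for Cyct to Cycs. Ldha was also at -0.0158 with library sizes over all annotation categories, a scaling that moved the median of all features to -0.02. The cause was not tested. With the replicate number as a replicate block, 1 feature and 0 isozyme genes were called, and no call changed. Same-numbered libraries deviated in opposite directions over intron sense features (correlation -0.15), and a crossed pairing, added after seeing the data, called 2 of them, against 1. Of all values recomputed, 198 kept their direction and, where there was one, their side of the threshold or count of calls. Another 6 changed sign, 5 counts of calls changed, and 2 differences became stronger. The 198 include the differences of the 5 ratios with same-numbered libraries paired, which equal the unpaired ones by construction. With 2 libraries a genotype the intervals of Pdha1 and Gapdh, the genes with the fewest reads, were the widest.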
